A study of Mus musculus with 12 samples.

Results

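The intervals described here are stretches of the mouse genome that were more accessible in reprogramming cells given a guide RNA against Zfp266 (KO) than in reprogramming cells given a non-targeting guide RNA (control), and at which no peak had been called in the control. They were chosen by their measured values, from the deposited table of reprogramming intervals past the authors' threshold. An interval was taken where the mean normalised read count was higher in KO than in control, where the mean level in the 6 fibroblast libraries was under 0.5 of the control mean, and where no control peak overlapped it by 1 bp. Of 273256 intervals made by merging the 4 peak lists, 1608 were listed for reprogramming and 1522 of these were higher in KO. The rule left 353 intervals, which were 23.2% of the 1522. The fibroblast level alone had left 1036. As background, 0.557% of all merged intervals were listed as higher in KO. Because the rule used the reprogramming contrast, its values are given below as a description and carry no test.

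Accessibility was measured by Omni-ATAC-seq, which inserts sequencing adapters into open chromatin, in 12 libraries of 50000 sorted mouse cells each. The cells were mouse embryonic fibroblasts (MEFs) from E12.5 embryos, labelled as strain 129. The line used, in controls and KO, carried Cas9, the doxycycline-inducible cassette MKOS (c-Myc, Klf4, Oct4 and Sox2, with the fluorescent protein mOrange) and a Nanog-GFP reporter. By the study's methods it came from chimeric embryos made by morula aggregation, with host embryos collected from B6CBAF1 females, so a MEF preparation can hold host cells without the transgenes. For reprogramming, the methods describe plating a minority of the transgenic MEFs among wild-type 129 MEFs. There were 4 groups of 3 libraries, namely MEFs with the non-targeting or the Zfp266 guide RNA and reprogramming cells with either one. The cells were harvested 96 hours after transduction, and the reprogramming groups were kept in embryonic stem cell medium with doxycycline at 300 ng/ml and vitamin C at 10 µg/ml for the last 72 hours. The KO cells were a transduced pool and not a clone, so they can hold unedited cells, and the reprogramming cells were sorted for mOrange, which marks the cells that express MKOS. The labels do not say whether the 3 libraries of a group came from separate cultures, so the spread between them may be technical.

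ZFP266 belongs to the KRAB zinc finger proteins, a large family of DNA-binding repressors in mammals. The zinc fingers of such a protein recognise a DNA sequence, often inside a transposable element, and the KRAB domain recruits the co-repressor TRIM28, which brings histone-modifying enzymes that compact the chromatin. B1 elements are short interspersed nuclear elements of rodents, copied many times through the genome and derived from 7SL RNA. During reprogramming the introduced factors bind and open chromatin that is closed in fibroblasts.

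The sequence of these intervals was not used to choose them, and it is shown first because a single repeat family ran through most of them. A B1 consensus of 137 bases was built from repeat-masked sequence in and beside merged intervals that were listed in neither table. It is shown 5′ to 3′, with the 8 bases that match the KLF string GGGNGTGG in capitals near its start, which is called the head here.

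B1 consensus: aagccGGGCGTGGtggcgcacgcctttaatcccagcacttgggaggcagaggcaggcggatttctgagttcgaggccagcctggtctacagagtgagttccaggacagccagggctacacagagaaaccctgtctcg

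The 6 intervals with the highest KO over control among those with a B1 alignment of at least 100 bases and a readable head held the elements below. Each is read from the GRCm38.p6 reference on the strand of the element, with the bases aligned to the KLF string of the consensus in capitals.

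Interval_186706, chr4:125130816-125130953, plus strand: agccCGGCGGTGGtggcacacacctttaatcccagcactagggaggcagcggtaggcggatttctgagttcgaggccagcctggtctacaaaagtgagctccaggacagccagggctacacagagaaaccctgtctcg
Interval_133690, chr19:30209043-30209177, minus strand: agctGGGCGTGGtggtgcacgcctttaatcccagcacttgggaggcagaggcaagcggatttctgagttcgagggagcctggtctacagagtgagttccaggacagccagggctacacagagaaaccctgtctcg
Interval_263283, chr9:109971556-109971684, minus strand: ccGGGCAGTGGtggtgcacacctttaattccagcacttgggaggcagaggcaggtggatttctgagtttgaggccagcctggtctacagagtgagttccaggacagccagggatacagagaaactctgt
Interval_20114, chr10:4219886-4220016, minus strand: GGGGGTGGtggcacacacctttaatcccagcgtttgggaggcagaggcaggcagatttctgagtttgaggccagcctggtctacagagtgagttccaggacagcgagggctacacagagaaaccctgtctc
Interval_57722, chr12:75712916-75713020, plus strand: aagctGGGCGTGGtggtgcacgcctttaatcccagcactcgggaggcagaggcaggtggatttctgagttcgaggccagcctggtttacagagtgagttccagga
Interval_21866, chr10:19913678-19913811, plus strand: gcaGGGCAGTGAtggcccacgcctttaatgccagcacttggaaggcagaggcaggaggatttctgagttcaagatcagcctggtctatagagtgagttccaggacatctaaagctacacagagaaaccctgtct

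The KLF string stood unchanged in the elements of Interval_133690 and Interval_57722, while the element of Interval_263283 carried 1 inserted base. The element of Interval_20114 carried another base at the open position of the KLF string and so still matched it, and those of Interval_186706 and Interval_21866 carried other changes. Identity to the consensus ran from 88.8% in the element of Interval_21866 to 96.3% in that of Interval_133690.

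The next 2 sequences are 300 bases each of the plus strand, centred on the centre of the KO sub-peak. The sub-peak is the widest block of the KO gapped peak, a peak format that lists the narrower blocks inside each broad region. These 2 are the intervals with the highest KO over control whose window held 100 to 280 bases of B1, and the B1 bases are in capitals.

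Interval_79666, chr14:31341314-31341613, plus strand: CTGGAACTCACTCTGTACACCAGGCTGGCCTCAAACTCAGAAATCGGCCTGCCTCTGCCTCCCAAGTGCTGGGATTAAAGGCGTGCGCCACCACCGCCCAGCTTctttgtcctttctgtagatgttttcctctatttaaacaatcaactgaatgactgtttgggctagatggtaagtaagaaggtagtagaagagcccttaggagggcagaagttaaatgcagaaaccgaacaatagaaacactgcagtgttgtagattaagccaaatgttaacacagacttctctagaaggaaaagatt
Interval_193967, chr5:31850600-31850899, plus strand: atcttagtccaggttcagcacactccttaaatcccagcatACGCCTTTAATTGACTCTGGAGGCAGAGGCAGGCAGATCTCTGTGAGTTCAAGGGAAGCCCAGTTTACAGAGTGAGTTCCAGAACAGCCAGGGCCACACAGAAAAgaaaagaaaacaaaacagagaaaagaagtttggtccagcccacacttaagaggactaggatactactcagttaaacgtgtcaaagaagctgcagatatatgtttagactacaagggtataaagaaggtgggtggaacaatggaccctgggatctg

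In Interval_79666 the element lay left of the centre with its head towards it. In Interval_193967 the single element lay left with its head pointing away.

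For contrast, these are the same 300 bases of the 2 intervals with the highest KO over control that had no B1 element in the 1000 bp around the centre and had a searched motif, which is in capitals. The motif was the TEAD string GGAATG, read on the minus strand, in Interval_77253 and the AP-1 string TGACTCA, present 2 times, in Interval_100578.

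Interval_77253, chr14:12299179-12299478, plus strand: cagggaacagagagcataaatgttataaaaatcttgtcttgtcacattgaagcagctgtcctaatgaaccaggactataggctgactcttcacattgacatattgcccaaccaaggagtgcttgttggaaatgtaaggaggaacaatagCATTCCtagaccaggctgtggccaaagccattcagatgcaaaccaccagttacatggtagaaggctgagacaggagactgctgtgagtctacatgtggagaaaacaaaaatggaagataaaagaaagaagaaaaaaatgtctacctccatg
Interval_100578, chr16:8269381-8269680, plus strand: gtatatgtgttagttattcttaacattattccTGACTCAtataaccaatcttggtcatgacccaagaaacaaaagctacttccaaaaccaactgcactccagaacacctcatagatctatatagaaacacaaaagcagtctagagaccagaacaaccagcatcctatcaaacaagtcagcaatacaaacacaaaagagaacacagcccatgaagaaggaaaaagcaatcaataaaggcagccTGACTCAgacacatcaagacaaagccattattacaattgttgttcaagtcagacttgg

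In level, the 353 intervals were weak in control, higher in KO and lowest in fibroblasts, as the rule requires. The median over the intervals of the normalised read count, which is the read count divided by a library size factor, was 21.2, 19.1 and 22.2 in the 3 control libraries and 64.0, 61.5 and 65.1 in the 3 KO libraries. The control mean had a median of 20.5 and ran from 3.60 to 191, the KO mean had a median of 63.2 and ran from 20.5 to 314, and the mean of the 6 MEF libraries had a median of 4.25 and ran from 0.441 to 43.5. These medians rest on few reads, since the libraries held 6894 to 27541 raw reads over all 353 intervals together.

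The fold of KO over control had a median of 2.98 and ran from 1.42 to 9.96. A fold of at least 2 was found at 331 of the 353 intervals (93.8%) and a fold of at least 4 at 72. Among the 683 openings that also had a low fibroblast level but did overlap a control peak, 245 (35.9%) had a fold of at least 2 and the median was 1.82. Among the 486 openings with a higher fibroblast level, 225 (46.3%) had a fold of at least 2 and the median was 1.92. Requiring no control peak itself favours low control levels and so larger folds, and the difference between the classes is no finding. The median log2 of KO over control, with 1 added to both means, was 1.52 here, 0.86 at the 683 and 1.02 over all 1522 openings. In all 353 intervals the lowest KO library was above the highest control library, which the selection favours and which is not evidence of its own.

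**Figure D1:**
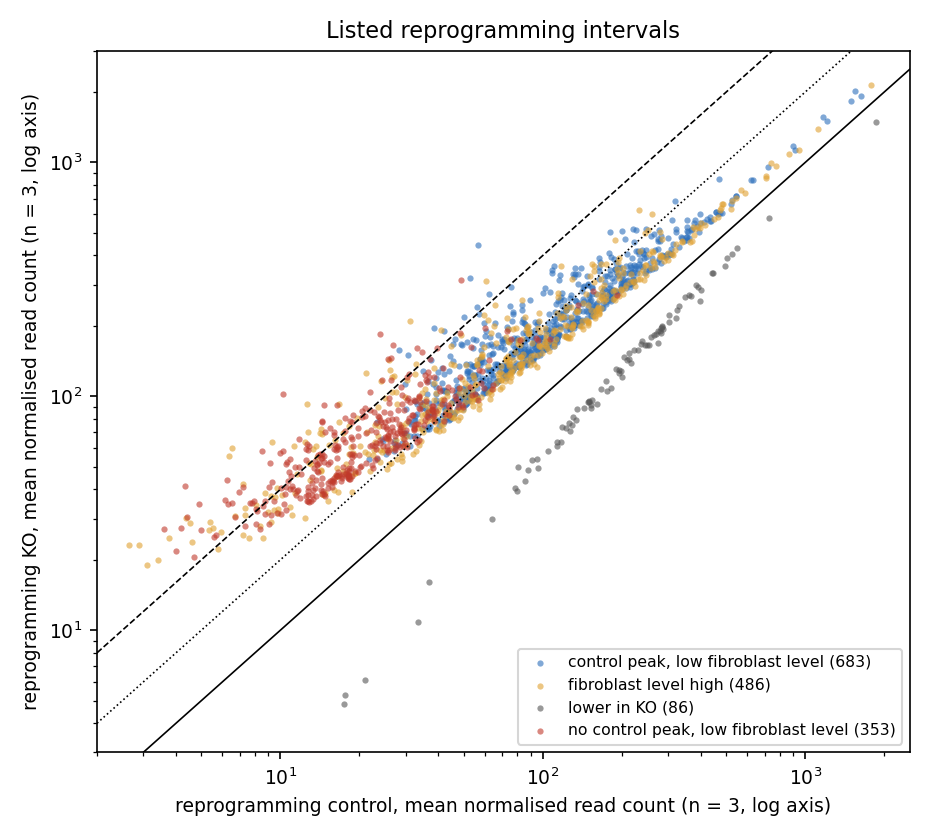
Each point is a listed reprogramming interval, placed by its mean normalised read count in control (x axis) and KO (y axis), n = 3 libraries each, on log axes. The solid line marks equal levels, the dotted line 2-fold and the dashed line 4-fold, and the 353 intervals without a control peak (red) sit at the low end of the control axis, with a median control mean of 20.5.

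The absence of a called control peak did not mean the absence of reads. Of the 353 intervals, 346 had at least 3 raw reads in each of the 3 control libraries, and 11 had a control mean above 63.2, the median KO mean. Per kilobase of interval, the median control level was 37.4 normalised reads, against 92.3 at the 683 openings with a control peak, and 37 of the 353 were above that value. The control level thus overlapped between both classes, although only one of them held called peaks. The nearest control peak lay a median of 3052 bp away, within 1000 bp at 21 intervals and within 10000 bp at 310, and no nearer than 632 bp.

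The 2 intervals just inside the limit on the fibroblast level, Interval_16436 and Interval_28496, had a ratio of fibroblast to control level of 0.499 and 0.497, and the 2 just outside, Interval_228958 and Interval_203151, had 0.501 and 0.502. Interval_130804, the nearest to a control peak, had a control mean of 41.5 and a KO mean of 132. Interval_87856, the one outside with the shortest overlap of a control peak, 195 bp, had 33.1 and 83.8.

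The intervals were short. Their median length was 477 bp (201 to 2405 bp), against 1050 bp at the 683 openings with a control peak and 732 bp over all merged intervals. A KO peak overlapped 352 of the 353, and for 350 it was the only one of the 4 peak lists that did. The fold enrichment of these KO peaks over background, a value of the merged group with no replicate error, had a median of 2.73, against 3.79 at the 683 and 2.92 over all 163315 KO peaks. The remaining interval, Interval_113692 at chr17:29328325-29328567, overlapped only a MEF KO peak (fold enrichment 1.69). Interval_58922 at chr12:83705233-83705992 also overlapped a MEF KO peak (2.05), and Interval_116655 at chr17:56199889-56200909 overlapped peaks of both MEF lists (2.10 in control and 2.10 in KO).

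None of the 353 was in the deposited table of MEF intervals, where 0.175% of all merged intervals were listed as higher in KO. That table gives counts only for intervals past the authors' threshold. The 353 were thus not called past it in MEFs, but the size of the KO effect in MEFs is not given for them. A difference between MEF and reprogramming could therefore not be tested. The MEF level is known only as the mean over the 6 MEF libraries, control and KO together.

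Of the 12 intervals with the highest folds, none lay at a promoter and all had a B1 element in the 1000 bp around the centre. Over all 353 intervals the shares were 2.55% and 92.9%, so these counts do not set the 12 apart. Interval_105626, Interval_64994, Interval_153649 and Interval_16436 held no B1 element within the interval itself. The 12 are named with the nearest start site of a protein-coding gene, which is a position and no statement on regulation. Interval_79666 at chr14:31341328-31341601, in an intron of Capn7, a calpain-type protease, had 11.2, 9.07 and 10.4 normalised reads in control and 94.2, 97.2 and 114 in KO. The lowest KO library stood far above the highest control library, a 9.96-fold difference between the means (102 ± 10.8 against 10.2 ± 1.07, SD, n = 3), and the mean MEF level was 1.36.

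Interval_105626 at chr16:47142246-47142552 lay in a gene-poor stretch, 645432 bp from the start site of Nectin3, a cell adhesion protein. It had 2.23, 8.17 and 2.61 in control and 45.7, 35.7 and 42.9 in KO, a fold of 9.55 that rests on a control level of few reads. Interval_193967 at chr5:31850472-31851030, in an intron of Babam2, a subunit of a BRCA1-containing DNA repair complex, had 20.1, 25.4 and 26.1 in control and 182, 179.6 and 191 in KO, a fold of 7.71. Its KO peak had the highest fold enrichment of the 352, 8.89.

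Interval_186706 at chr4:125130192-125131065, intergenic and 2789 bp from the start site of Zc3h12a, an endonuclease that degrades inflammatory transcripts, had the highest KO level of all. It had 64.8, 37.2 and 44.4 in control and 285, 347 and 309.6 in KO, a fold of 6.43. The groups were well apart even though the first control library was the highest of its group.

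The other 8 of the 12 had folds of 6.15 to 7.56. They lay near Msi2, an RNA-binding protein (Interval_45583), Olfr1368, an olfactory receptor (Interval_64994), Pex5l (Interval_160711), Slc24a3, a cation exchanger (Interval_153649), Mbl2, a mannose-binding lectin (Interval_133690), Map4, a microtubule-associated protein (Interval_263283), Myh11, a smooth muscle myosin (Interval_101359), and Nuf2, a kinetochore protein (Interval_16436). Interval_133690 was the most even in control, with 26.8, 26.3 and 27.4 against 156, 153 and 187 in KO. Interval_160711 was the thinnest, with 3.35, 0.907 and 6.53 against 28.4, 24.6 and 28.6.

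**Figure D2:**
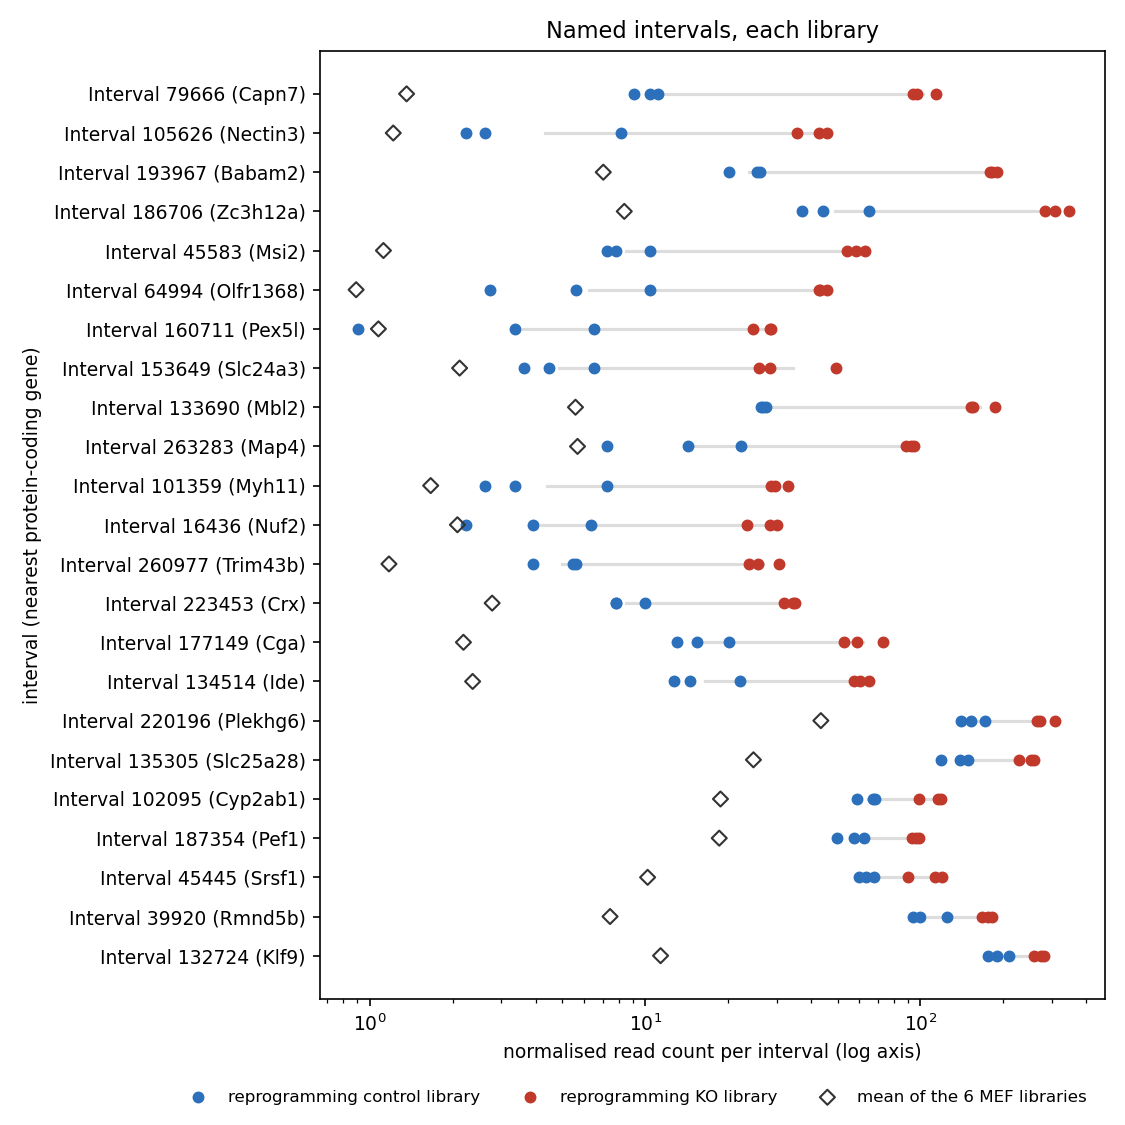
Normalised read counts of the 23 named intervals on a log axis, with each reprogramming control library (blue), each reprogramming KO library (red) and the mean of the 6 MEF libraries (open diamond), and a grey line between the group means. The red points lie right of the blue in every row, by 9.96-fold at the top and 1.42-fold at the bottom.

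The 4 intervals with the highest KO level included 3 with small folds. Interval_220196 near Plekhg6 had 171, 141 and 153 in control and 308, 266 and 271 in KO, and Interval_135305 near Slc25a28, a mitochondrial iron carrier, had 139.7, 119 and 149 against 258, 229 and 252. Interval_132724 at chr19:23129906-23131211, 10667 bp from the start site of Klf9, a zinc finger transcription factor of the KLF family, had the lowest fold of all, 1.42. Its values were 209, 176 and 189 in control and 274, 259.6 and 281 in KO. All 3 had more reads in each control library than the median interval had in KO, and still overlapped no control peak.

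Interval_132724 was among the 25 intervals with no B1 element in the 1000 bp around their centre. The other 3 of the 4 lowest folds were 1.65 for Interval_39920 in Rmnd5b, 1.69 for Interval_45445 near Srsf1, a splicing factor, and 1.70 for Interval_187354 in Pef1, a calcium-binding protein, and each held a B1 element.

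Only 5 intervals lay within 1000 bp of the start site of a protein-coding gene. They were Interval_260977 at Trim43b, Interval_223453 at Crx, a photoreceptor homeobox factor, Interval_177149 at Cga, the alpha subunit of pituitary hormones, Interval_134514 at Ide, the insulin-degrading enzyme, and Interval_102095 at Cyp2ab1, a cytochrome P450. At Ide the control libraries had 14.5, 12.7 and 22.2 and the KO libraries 65.0, 60.3 and 57.2, a fold of 3.69. At Crx the values were 7.82, 9.98 and 7.83 against 32.0, 34.4 and 34.9, a fold of 3.96. At Cyp2ab1 the fold was 1.72, the lowest of the 5, and at Trim43b it was 5.36, the highest. None of the 5 held a B1 element, and all 5 had one within the 1000-bp window.

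By midpoint, 205 of the 353 intervals (58.1%, 95% Wilson interval 52.9 to 63.1%) lay in introns and 130 (36.8%, 32.0 to 42.0%) between genes. A further 9 (2.55%, 1.35 to 4.77%) lay within 1000 bp of any annotated start site and 9 in exons. The share at start sites was 4.39% at the 683 openings with a control peak (3.09 to 6.201%) and 8.61% over all merged intervals. The Wilson intervals here and below cover counting error only, and shares of different classes are set side by side without a test. The intervals were scattered, with a median gap of 4264200 bp to the next one on the chromosome and only 4 gaps within 10000 bp.

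No interval had as its nearest start site within 100000 bp a gene of the 6 lists searched: 30 pluripotency genes, 20 epithelial, 22 fibroblast and mesenchymal, 12 AP-1, 15 of the KRAB zinc finger co-repressor machinery and 15 germline piRNA genes. A count of 0 of 353 allows a share of up to 1.08% by its Wilson interval, and over all merged intervals the shares were 0.167%, 0.0820%, 0.201%, 0.0553%, 0.0615% and 0.0326%. All 6 background shares lay under that limit, so the counts of 0 do not set the intervals apart from the rest. The intervals were nearest to 302 different genes within that distance, and no gene was nearest to 3 or more.

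A B1 element was found within 222 of the 353 intervals (62.9%, 95% Wilson interval 57.7 to 67.8%). The share was 81.8% at the 683 openings with a control peak (78.8 to 84.6%), 77.0% at the 486 openings with a higher fibroblast level (73.0 to 80.5%) and 8.32% over all merged intervals. It was 2.33% at the 86 intervals lower in KO (0.640 to 8.09%). At the 9457 intervals that held a reprogramming KO peak only and were listed in neither table, it was 9.16% (8.59 to 9.76%).

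The whole-interval shares are read over different lengths, and the order of the classes changed when the length was held equal. In windows of 1000 bp around the KO sub-peak centre, or around the midpoint for the 8 intervals with no sub-peak, 328 of the 353 intervals had a B1 element (92.9%, 89.8 to 95.2%), against 81.1% of the 683 with a control peak (78.0 to 83.9%) and 74.3% of the 486 (70.2 to 78.0%). The Wilson interval of the 353 lay above both of the others. The shares were 25.98% at the unlisted intervals with a KO peak only (25.1 to 26.9%) and 10.6% over all merged intervals. The midpoint also served as the centre at 19 of the 486, at 3622 of the 9457 unlisted intervals and at merged intervals outside the compared classes. For 111 intervals the element stood beside the interval and not in it, and 20 had none in either. This window was added after the data had been seen.

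**Figure D3:**
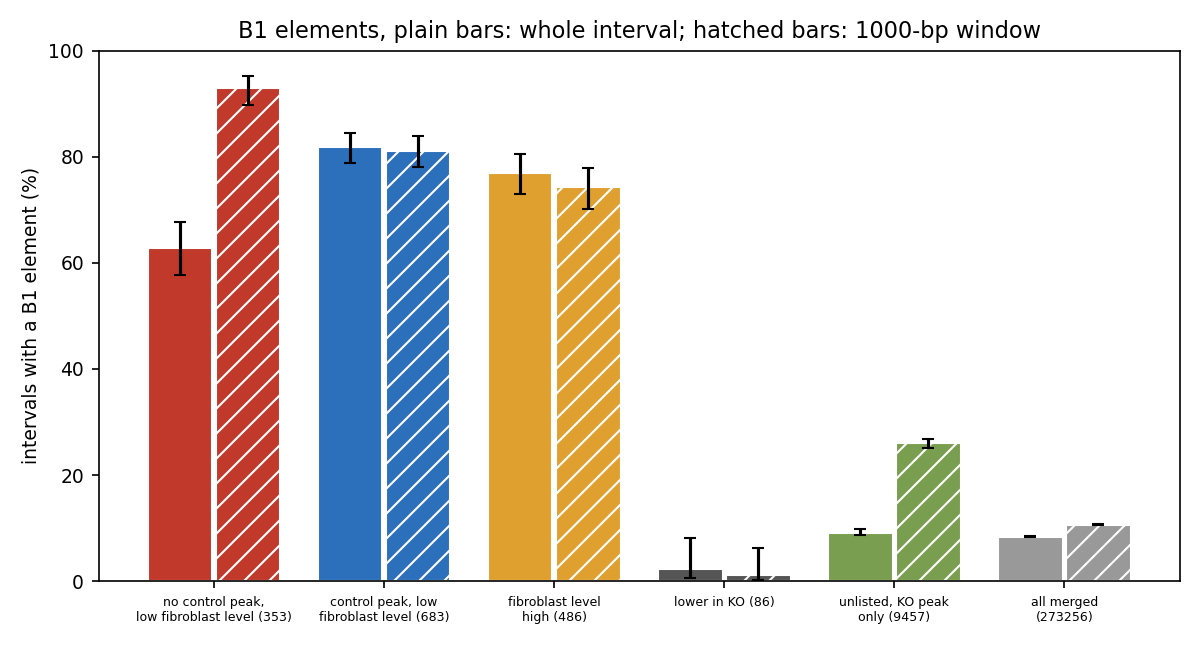
Share of intervals with a B1 element by class, as a percentage, over the whole interval (plain bars) and over a window of 1000 bp (hatched bars), with 95% Wilson intervals and the number of intervals under each class. The red bars rise from 62.9% to 92.9% between the readings, and the blue bars stay at 81.8% and 81.1%.

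A B1 element covered bases about 200 bp from the centre of the KO sub-peak more often than the centre, here as in the other openings, the unlisted intervals and all merged intervals. In the 345 intervals with a sub-peak, a B1 element covered the base 180 bp left of the centre in 27.8% and the base 200 bp right of it in 26.1%, but the centre itself in 14.8%. Between those 2 flanking bases the lowest share was 12.46%, at 40 bp right of the centre. At the 683 openings with a control peak the highest share on the left was 17.7%, at 300 bp, with 10.5% at the centre. The KO sub-peak had a median width of 432 bp in the 353 and 818 bp at the 683, and distances were not scaled to it. The unlisted intervals with a KO peak only went from 5.36% at 200 bp left to 2.60% at the centre, and all merged intervals from 1.75% at 420 bp left to 0.880%. The lower values near the centre were therefore not limited to the openings, and the classes differed in level.

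**Figure D4:**
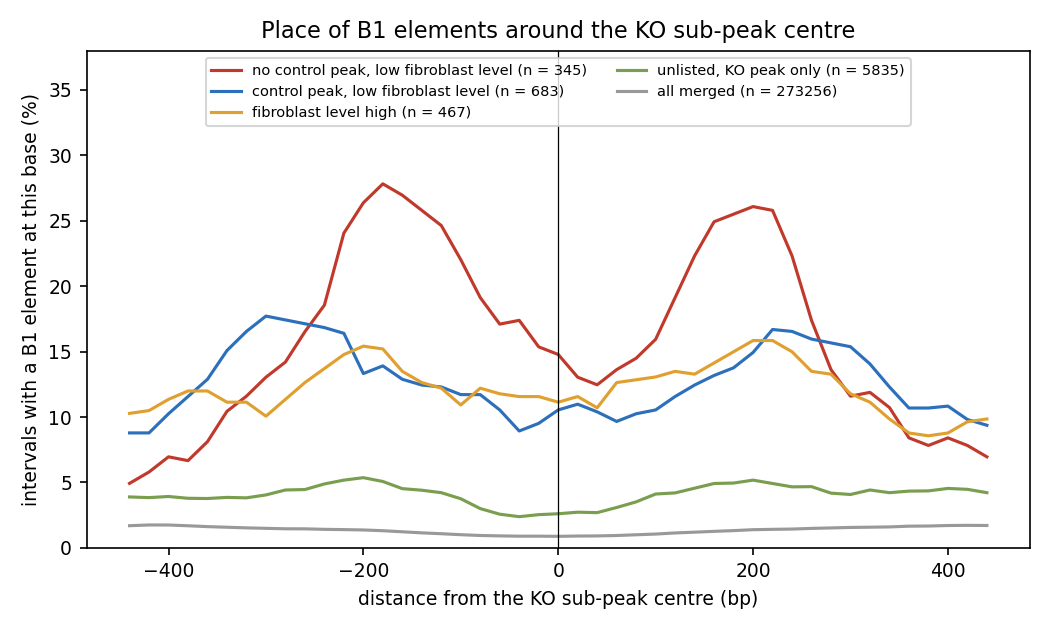
Share of intervals, as a percentage, in which a B1 element covered the base at each distance in bp from the KO sub-peak centre, by class (for merged intervals outside the other classes and those without a sub-peak, from the interval midpoint). The red line of the intervals without a control peak reaches 27.8% at 180 bp left and 26.1% at 200 bp right. Between these distances the line stands at 14.8% at the centre and is lowest, at 12.46%, 40 bp right of the centre.

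Most B1 elements pointed their head at the centre. Within the intervals, 154 of 207 elements that did not cover the centre did so (74.4%, 68.0 to 79.9%), and in the 1000-bp windows 295 of 367 (80.4%, 76.0 to 84.1%). The window shares were 75.4% at the 683 openings with a control peak (71.8 to 78.7%), 73.7% at the 486 (69.2 to 77.8%) and 61.6% at the unlisted intervals (59.3 to 63.8%). Among elements within 250 bp of the centre, 84.8% faced it (79.8 to 88.8%), and 71.5% did from 250 to 500 bp (63.0 to 78.8%). The order was the other way at the 683, with 73.8% within 250 bp (68.2 to 78.7%) and 76.7% beyond (71.9 to 80.8%), and at the 486, with 71.8% (65.3 to 77.5%) and 75.6% (69.2 to 81.04%). From 250 to 500 bp the share was thus lowest in the 353 among these 3 classes, with Wilson intervals that overlapped. The unlisted intervals had the same order as the 353, with 66.5% within 250 bp (63.3 to 69.6%) and 57.3% beyond (54.2 to 60.4%). The near end of the facing elements lay a median of 139 bp from the centre (quartiles 89.5 and 207.5 bp), against 205 bp at the 683. These distances too were not scaled to the sub-peak, which was narrower in the 353. Elements stood on both sides of the centre in 48 of the 345 intervals, and in 23 a head faced in from each side. Elements of 1 family share their sequence and several can lie in 1 interval, so they are not independent.

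The elements were close to the consensus. Of the 262 elements found within the intervals, 137 lay on the plus strand, the median identity was 91.8% and the median alignment was 122 bases. The median identity was 91.9% at the 683 openings with a control peak, 86.4% at the unlisted intervals with a KO peak only and 83.3% over all merged intervals. Of the 353 intervals, 131 held no element, 191 held 1 and 31 held 2 or more, with up to 4.

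The 8 bases of the head could be read in 220 elements. They were unchanged in 81 (36.8%, 30.7 to 43.4%) and carried only a C-to-T change in their CpG, which the KLF string allows, in 37 (16.8%). These forms together made up 118 of the 220 (53.6%, 47.0 to 60.1%), a count that leaves out other bases at the open position. The share of both forms was 42.6% at the 683 openings with a control peak (38.8 to 46.5%), 43.6% at the 486 (39.0 to 48.3%) and 19.4% over all merged intervals. One inserted base was found in 35 (15.9%), close to the 14.2% over all merged intervals. A G-to-A change in the CpG, which breaks the string, was found in 1 of the 220 elements (0.455%, 0.0803 to 2.53%), against 4.23% of 615 elements at the 683 (2.90 to 6.12%), 3.26% of 429 at the 486 (1.95 to 5.40%) and 4.91% over all merged intervals. The Wilson interval of the 220 overlapped that of the 486.

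Motifs of the reprogramming factors and of fibroblast factors were searched as fixed strings on both strands. The strings were GGGNGTGG for KLF, TGACTCA for AP-1, CCTTTGTT, CCTTTGTC, CCATTGTT or CCATTGTC for SOX, ATTTGCAT for OCT and GGAATG for TEAD. Over the whole interval the KLF string was found in 206 of the 353 (58.4%, 53.2 to 63.4%), and with B1 elements masked in 109 (30.9%, 26.3 to 35.9%). Over all merged intervals the share was 28.3%, and 27.5% with B1 masked. These shares were read over unequal lengths, a median of 477 bp in the 353 and 732 bp over all merged intervals, and the masked share was not computed over equal lengths, so the masked shares are not compared.

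In the 1000-bp windows the KLF string was present in 64.6% (59.5 to 69.4%), against 60.5% at the 683 (56.8 to 64.1%) and 29.7% over all merged intervals. The AP-1 string, bound by FOS and JUN proteins that are active in fibroblasts, was present in 18.7% (14.97 to 23.1%), against 23.7% at the 683 (20.7 to 27.1%), 40.3% at the 486 openings with a higher fibroblast level (36.1 to 44.7%) and 29.5% over all merged intervals. It was as frequent, at 18.8% (18.05 to 19.6%), in the unlisted intervals with a KO peak only, and stood at 19.8% (12.7 to 29.4%) in the 86 lower in KO. The SOX strings were present in 21.5% (17.6 to 26.1%) and the OCT string in 8.22% (5.78 to 11.5%), against 20.05% and 6.31% over all merged intervals, which lay within those Wilson intervals. The TEAD string was present in 35.4% (30.6 to 40.5%), against 40.1% at the 683 (36.5 to 43.8%), whose Wilson interval overlapped, 41.7% at the unlisted intervals (40.7 to 42.7%) and 47.3% over all merged intervals. A matching string is a description and not a bound site.

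**Figure D5:**
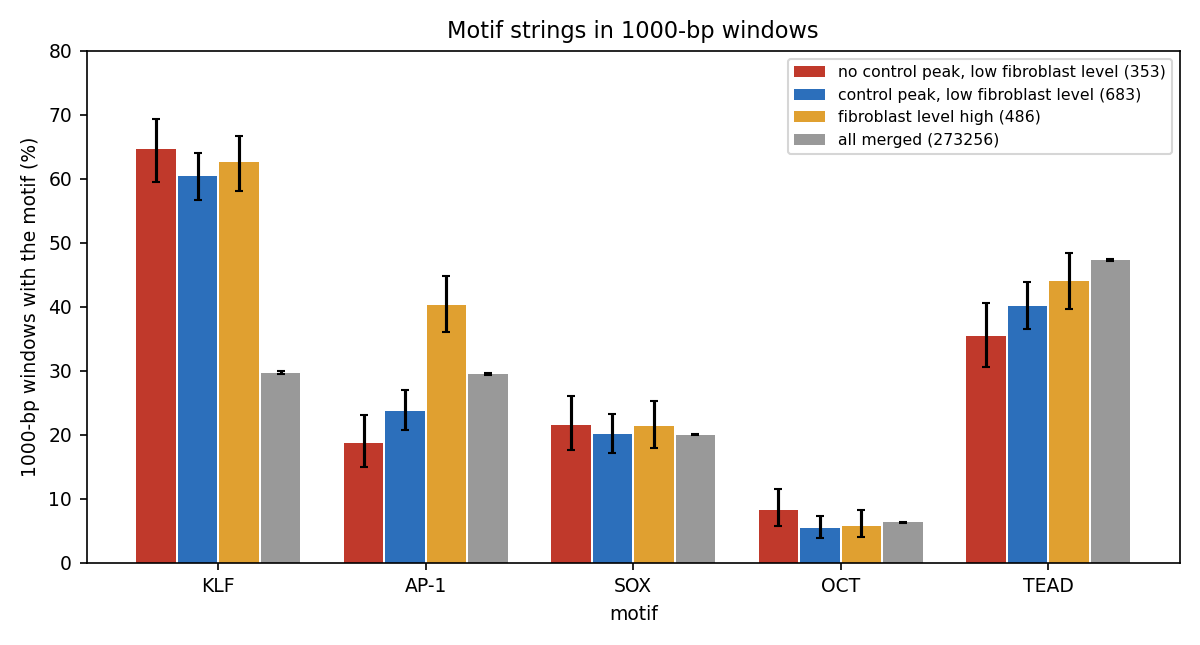
Share of 1000-bp windows that hold each motif string, as a percentage, for 3 classes of openings and all merged intervals, with 95% Wilson intervals. The KLF bars of the openings stand at 60.5 to 64.6%, above 29.7% for all merged intervals, and the AP-1 bar of the intervals without a control peak stands at 18.7%, under 29.5%.

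Within the 353, the median fold was 2.98 in the 328 intervals with a B1 element in the window and 2.98 in the 25 without, and the median KO mean was 61.9 and 77.4. The 25 were longer, with a median of 643 bp against 475.5 bp. Read over the interval itself, the KO level had the other order, at 68.3 in the 222 intervals with an element and 55.8 in the 131 without, and the median fold was 3.01 and 2.95. There the 222 were the longer group, with a median of 545.5 bp against 395 bp. The KO level is a read count per interval, and in both readings it was higher in the longer group. How it stood to B1 at equal length was not tested. The levels and folds come from the contrast that chose the intervals and carry no test.

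The labelled cell types were checked by called peaks within 1000 bp of the start sites of marker genes, which show an open start site and not expression. All 5 fibroblast markers (Thy1, Col1a1, Twist2, Prrx1 and Pdgfrb) and all 3 epithelial markers (Cdh1, Epcam and Krt8) had a peak in each of the 4 lists. Of the pluripotent markers, Nanog had none in either MEF list and had one in both reprogramming lists (fold enrichment 2.66 in control and 2.40 in KO), Pou5f1 had one in all but the MEF KO list, and Esrrb had one in all 4. Several markers did not run with the labels. The fold enrichment at Esrrb was 4.36 and 3.96 in MEF control and KO and 2.74 in each reprogramming list, and all 3 epithelial markers were higher in both MEF lists, at 2.93 to 4.65, than in the reprogramming lists, at 2.45 to 3.33. At Cdh1 it was 4.65 and 4.61 in MEFs and 2.78 and 2.70 in reprogramming. The fibroblast marker Prrx1 stood at 2.05 and 2.07 in MEFs and 2.24 in each reprogramming list, while the other 4 fibroblast markers were higher in MEFs. Values in MEFs were also higher at the neural marker Map2 (5.23 and 5.31 against 3.05 and 3.30) and at Zfp266 (5.46 and 5.08 against 5.03 and 4.52). At the neural marker Pax6 they were lower (3.04 and 2.86 against 3.10 and 3.30). Fold enrichment was not scaled between the lists here, so these differences are not read as differences in openness. Ptprc and Cdh5, of blood and endothelium, had none in any list, Pecam1 had one in both MEF lists only, and Cd68 and the neural markers Map2 and Pax6 had one in all 4. Their part in the openings was not tested. The start site of Zfp266 had a peak in every list (4.52 to 5.46), which does not check the editing, since a guide RNA leaves a small change in the gene.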

How the data were processed

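Per the labels and the study's methods, the authors trimmed the reads with cutadapt, aligned them to GRCm38.p6 with BWA and dropped reads that were mitochondrial, duplicated, in blacklisted regions or not properly paired. Broad peaks came from MACS2, 1 list per group from merged replicates. The deposited tables give raw read counts per library and a normalised signal, each count over its library's DESeq2 size factor, only for intervals past an adjusted p-value threshold. The peak lists deposited by the authors hold −log10 q-values and a ratio, the fold enrichment, and gapped-peak files hold narrower blocks. Their log2 fold changes were not used, and their p-values entered only through that threshold, which decided the listed intervals.

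The 4 peak lists were merged with bedtools 2.31.1. The MEF level was the sum over 12 libraries implied by the table's mean, less the 6 reprogramming libraries, divided by 6. Library size factors were 0.630 to 1.10. The 6 reprogramming libraries held 141616 to 324141 reads in the listed intervals, which is not their depth. A B1 consensus was built by majority extension (at least 35% of copies) of the most frequent 14-mer of masked sequence from 20000 merged intervals with 200 bp beside each (random seed 11), and searched with blastn 2.17.0 (E-value under 1e-05, at least 60 aligned bases). On simulated sequence the search found 100 of 100 copies with 10% changed bases, 99 of 100 with 20%, and 0 of 100 shuffled ones. Start sites came from GENCODE M21. Coordinates are counted from 1, with starts in the files counted from 0.

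The intervals named by rule were the 12 highest and 4 lowest by log2 of KO over control (1 added to both means), the 4 highest by KO mean, up to 8 within 1000 bp of a coding start site, and any in the MEF table or near a listed gene. Others were named after their values were seen. Members, gene lists and motifs were chosen with earlier results of these data known. The edgeR test planned for the MEF contrast could not be run, since no interval had MEF counts.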

Additional observations from a re-analysis of the deposited data

How the results depend on the processing

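The number of intervals stayed within 1.5 times of 353 under each of these alternatives: 273 and 437 with the fibroblast level under 0.33 and 1 time the control, 353 with no control peak within 500 bp, 238 with a KO mean of at least 50, and 349 to 360 when 1 library was left out. The median log2 of KO over control was 1.499 to 1.57 when 1 library was left out, 1.16 with a pseudocount of 10 and 1.40 with raw counts. The share of intervals with a B1 element was 45.3% with at least 100 aligned bases, 51.3% in the central 400 bp and 92.9% in the 1000-bp window. The share facing the centre was 80.4% in that window. In the central 400 bp the motif shares were 11.6% for AP-1, 44.5% for KLF, 12.46% for SOX and 14.2% for TEAD, as fewer bases were searched. In the 1000-bp window they were 64.6% for KLF and 35.4% for TEAD, as more bases were searched, and with B1 masked KLF stood at 30.9%. The other alternatives moved the values by less than the spread between libraries or the Wilson interval. None of the 48 changed the sign of a value, which carries no weight. Counts and shares have no sign, and the rule fixed that of the log2. The 1000-bp window did reverse the order of classes in B1 share, from 62.9% against 81.8% at the openings with a control peak to 92.9% against 81.1%. The 1000-bp windows were chosen after seeing the data. No paired analysis was possible because no interval had MEF counts per library and the reprogramming contrast chose the intervals, so no result came from a test. DESeq2, other scaling, other count filters and left-out libraries for the MEF test, and the difference between contexts, gave no value for the same reason. Few reads in control (a median of 17 to 21 raw reads per interval and library) limit the folds of the weakest intervals.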

Other observations

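Chromosome X held 20 of the 353 intervals, or 2.65 per 1000 merged intervals, against 1.25 on the other chromosomes together. The 683 openings with a control peak had 2.65 on X and 2.50 elsewhere, and the unlisted intervals with a KO peak only had 33.1 and 34.7. The difference was not tested. B2 elements, a second family of rodent short interspersed elements, were found in 16.7% of the 1000-bp windows of the 353 intervals (13.2 to 20.96%, 95% Wilson interval), against 17.4% at the 683 (14.8 to 20.4%), 18.9% at the unlisted intervals with a KO peak only (18.1 to 19.7%) and 7.87% over all merged intervals. The median GC content was 45.1% in the 353 intervals, 45.2% at the 683 and 45.2% over all merged intervals, and the median share of repeat-masked bases was 41.2%, 37.0% and 14.1%.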
